A study of Rattus norvegicus with 16 samples.

Results

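The subject is the hippocampus of rats 30 days after iron was infused into the amygdala (Fe day 30), set against the hippocampus of saline-infused controls, across all genes on the array. The members were the arrays whose titles name day 30 after the lesion and those titled as controls, 4 of each, which made 8 of the 16 arrays of the series. The Fe day 30 rats were male Wistar rats operated on at 5 weeks of age, given 1.0 µl of 100 mM ferric chloride in saline at pH 2.2 into the right amygdala and collected on day 30. The control rats were of the same sex, strain and age at surgery, received 1.0 µl of saline at pH 2.2 and were collected on day 15. All had a cannula in the right amygdala, and the right hippocampus of each rat was read on 1 Agilent array in 1 colour, so that every array is a separate animal. Days since infusion and age therefore differ between the groups together with iron, and these cannot be told apart. The series text states that the Fe rats had recurrent seizures, whose rate was not measured, and that none was seen in controls. The other Fe groups, collected on days 5 and 15, entered the estimate of the spread and are given beside a result where their values help.

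Ferric chloride in the amygdala is used to model the epilepsy that follows bleeding into the brain, because iron from broken-down haemoglobin drives oxidation of lipids and starts discharges that spread to the hippocampus. When hippocampal neurons fire, calcium and MAP kinase signals switch on immediate early genes such as Arc, Fos and the Egr and Nr4a families, whose proteins then act on later genes. The hippocampus also holds glia and small vessels, and it borders the meninges, the ependyma and the choroid plexus, which a dissection may include.

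The values below are log2 signals, each the processed intensity relative to the 75th percentile of its own array, so that 0 is the level of that percentile and a step of 1 is a factor of 2. A difference is the Fe day 30 mean minus the control mean. In all, 27375 features, called genes here, were tested. Of them 9442 carried a gene symbol and 17933 were probes without one. On all 8 arrays 26398 of them were well above background, 590 passed on the Fe day 30 arrays alone and 387 on the control arrays alone. Markers of brain cells were well above background, among them Snap25 of nerve terminals at 5.15 to 5.77 in Fe day 30 rats and 5.51 to 5.78 in controls. Prox1 of dentate granule cells, lower without overlap at −3.37 to −2.85 in Fe day 30 rats and −2.77 to −2.48 in controls, was well above background too. So was Aqp4 of astrocytes, at 4.50 to 4.75 in Fe day 30 rats and 4.58 to 4.72 in controls.

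One Fe day 30 array stood apart. In rat 3 of that group 1136 genes lay more than 1 log2 unit above the mean of the other 3 rats of the group, against 131 to 308 for each of the others. As far below lay 410 genes, against 209 to 420. Its score for choroid plexus epithelium, the median over 12 marker genes of how far the log2 signal lies from the control average, was 5.37, while rats 1, 2 and 4 had 0.00, 0.14 and 0.63 and the controls −0.08 to 0.17. Its score for meninges and fibroblasts was 3.16 over 19 genes, against −0.08 to 0.35 in the other Fe day 30 rats and −0.06 to 0.05 in the controls. Ttr, the thyroxine carrier made by choroid plexus, had log2 signals of −2.10, −2.25, 7.78 and 1.80 in Fe day 30 rats 1 to 4, and 0.04, −0.95, −1.96 and −2.64 in controls 1 to 4. Correlations between arrays across genes were 0.978 to 0.994 within Fe day 30 and 0.993 to 0.995 within the controls. Without rat 3 the Fe day 30 arrays correlated at 0.991 to 0.994. Rats 3 and 4 of Fe day 30 shared a slide with controls 2 and 3 in turn, and Fe day 30 rats 1 and 2 lay on slides with Fe day 5 rats alone. Many results are given with and without rat 3, and a value given once includes all 4 Fe day 30 rats. The part of choroid plexus or meningeal tissue in them was not tested.

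**Figure D1:**
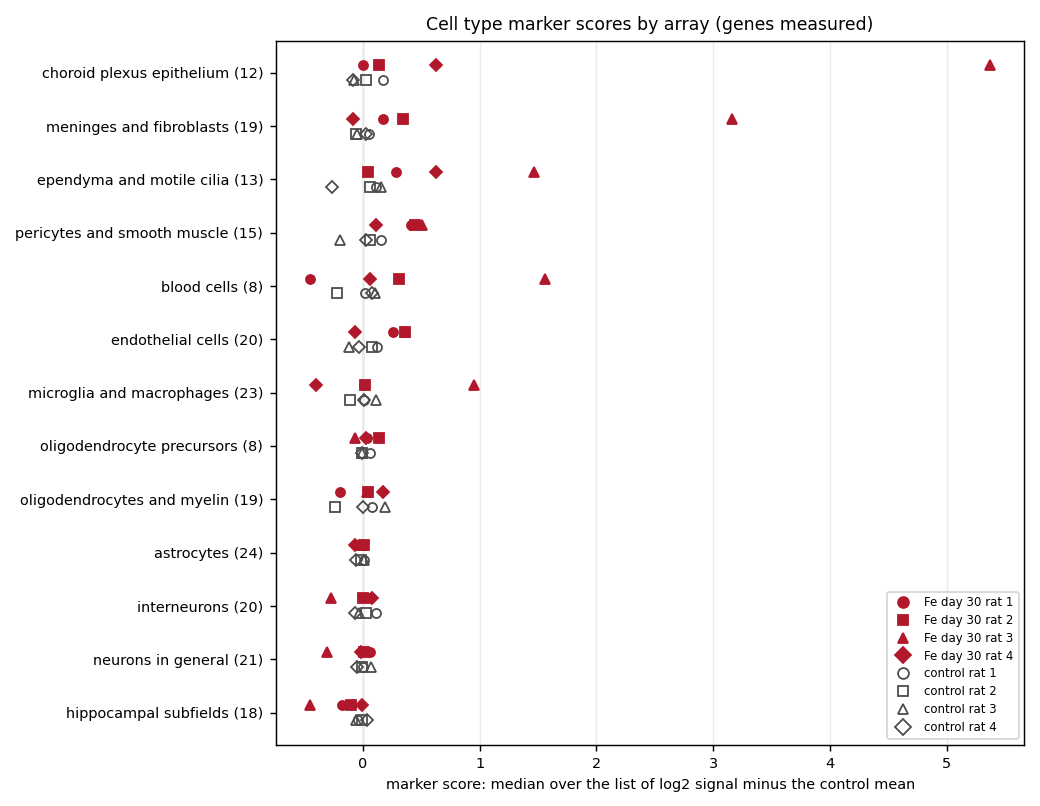
Marker score of each rat (x axis, log2 units: median over a list of the distance from the control average) for the cell type lists (y axis, number of genes measured in brackets), with Fe day 30 as filled red marks above the open grey marks of the controls. Fe day 30 rat 3 (triangle) lies far to the right for choroid plexus, meninges, ependyma, blood and microglia lists, while the other 3 rats lie between −0.45 and 0.63 on the lists shown.

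Few single genes could be told apart between Fe day 30 and control hippocampus at an adjusted threshold. Of 27375 genes, 2 passed a Benjamini-Hochberg adjusted p under 0.05 in limma and both were lower in Fe day 30 rats, 0.00731% of the genes tested, while 0 passed among the higher ones. Both are probes for expressed sequence tags that no table here pairs with a gene. Probe A_44_P226284 (accession AW143739) had log2 signals of −4.34, −4.11, −4.17 and −4.54 in Fe day 30 rats, against −2.90, −2.83, −3.21 and −2.99 in controls. No Fe day 30 rat reached the controls. Each SE, here and below, came from the spread shared by all groups in the fit, not from the compared groups alone. The difference was −1.31 ± 0.16 (SE, n = 4 rats a group), a level 2.47-fold lower, at an adjusted p of 0.0254. It was −0.51 at day 5 and −0.85 at day 15 against the same controls, and −1.35 ± 0.18 without rat 3. Probe A_44_P242546 (AA859989) had −2.58, −2.44, −2.40 and −2.33 in Fe day 30 rats, against −1.57, −1.57, −1.82 and −1.75 in controls. It fell by 0.76 ± 0.098 on the log2 scale, 1.69-fold, with the same adjusted p of 0.0254, and again no Fe day 30 rat reached the controls. With the slide as a block neither passed, at −1.49 and −0.75, and within the shared slides the differences were −1.34 and −1.33 for the first probe and −0.83 and −0.51 for the second.

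Short of that threshold, 828 genes were higher (3.02% of those tested) and 1328 were lower (4.85%) at an unadjusted p under 0.05. The 4 Fe day 30 values lay above all 4 control values in 707 genes (2.58%) and below them in 1026 genes (3.75%). A difference beyond 1 log2 unit was seen in 238 genes upward (0.869%) and in 88 downward (0.321%). Of the 238, 59 had passed the background filter on the Fe day 30 arrays alone, and of the 88, 31 had passed on the control arrays alone. Of the genes named below, Ly6g6e, Or52n4, Onecut1, Slc38a4, Kcnj13, Slc47a1, Col8a1, Hfe and Gabrg3 passed through Fe day 30 alone and RT1-CE10, Myl3, Cd3e and Npas4 through the control alone, so the sizes of their differences are uncertain. Rat 3 was the most extreme of the 4 rats in 147 of the 238, and 118 of them were still beyond 1 without it. Of the 1328 lower genes 619 were still at an unadjusted p under 0.05 without rat 3, and of the 828 higher ones 504. Without rat 3 the counts at that level were 997 higher (3.64%) and 784 lower (2.86%), so that the excess of lower genes turned into an excess of higher ones. Then 4 probes without a symbol passed the adjusted threshold, 1 higher (0.00365%) and 3 lower (0.011%), both of the above among them. By sign alone, 46% of all genes were higher and 54% lower, or 50.6% and 49.4% without rat 3.

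**Figure D2:**
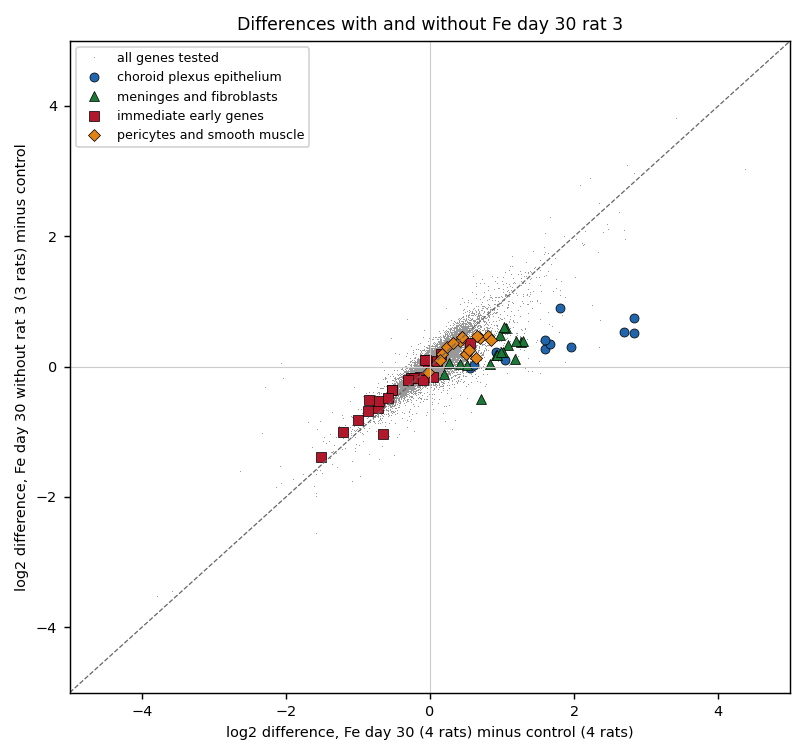
Log2 difference from control of every gene tested with all 4 Fe day 30 rats (x axis) and without rat 3 (y axis), with members of 4 lists marked and the line of equality dashed. Choroid plexus and meningeal markers drop towards 0 on the y axis. Immediate early genes lie nearer the line, with a list median of −0.30 on the x axis and −0.21 on the y axis.

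Among genes with a symbol none passed, and the lowest adjusted p was 0.257. The lower genes of smallest p were picked from those whose groups did not overlap, so their separation and narrow spread follow from that choice. Bin3, a membrane-bending protein of the BAR family, had log2 signals of −1.73, −1.85, −1.74 and −1.70 in Fe day 30 rats, against −1.40, −1.27, −1.37 and −1.46 in controls, a difference of −0.38 ± 0.08 (SE, n = 4 each, adjusted p = 0.257). Calr, the calcium-binding chaperone of the endoplasmic reticulum, had 2.94, 3.02, 3.02 and 2.71 in Fe day 30 rats, against 4.03, 3.82, 3.87 and 3.67 in controls. No Fe day 30 rat came near the controls, and the difference was −0.92 ± 0.19, 1.89-fold lower (adjusted p = 0.257). Within the shared slides Calr differed by −0.80 and −1.15, and both Bin3 and Calr were past the adjusted threshold when arrays were weighted by their quality. Stat6, the transcription factor of interleukin-4 signalling, had −3.08, −3.05, −2.87 and −3.09 in Fe day 30 rats, against −2.38, −2.18, −2.37 and −2.46 in controls. Its difference of −0.67 ± 0.16 stood beside −0.73 at day 5 and −0.68 at day 15.

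The other lower genes of this kind belong to several kinds of cell biology. Cops7b, a subunit of the COP9 signalosome, stood at −0.42 ± 0.09, the ubiquitin protease Usp42 at −0.31 ± 0.07 and Rabgap1, which switches off Rab GTPases, at −0.39 ± 0.09. Rap2a, a small GTPase of the Ras family, stood at −0.37 ± 0.08 with differences of −0.13 at day 5 and −0.02 at day 15. Slmap stood at −0.37 ± 0.09, the myosin Myo9a at −0.26 ± 0.06, Ppm1k, the phosphatase that turns on branched-chain amino acid breakdown, at −0.41 ± 0.10, and Agps, an enzyme of ether lipid synthesis, at −0.31 ± 0.08. The splicing factor Sf3b2 stood at −0.29 ± 0.07. Pspc1, a paraspeckle protein, stood at −1.36 ± 0.34, but rat 4 alone was at −2.24 while rats 1 to 3 were at −0.38 to −0.20 and controls at 0.45 to 0.67.

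The higher genes of smallest p were led by Arhgap17, a protein that switches off small GTPases. It had −1.05, −1.52, −0.34 and −0.49 in Fe day 30 rats, against −2.05, −1.97, −1.85 and −1.76 in controls, a difference of 1.06 ± 0.23 (2.09-fold, adjusted p = 0.271), with 0.89 ± 0.22 without rat 3. It stood at 1.14 at day 5 and 0.19 at day 15. Ly6g6e, a small surface protein of the Ly6 family, had −2.27, −3.87, −4.13 and −4.71 in Fe day 30 rats, against −6.48, −7.34, −6.49 and −5.97 in controls, where it was above background on 3 of 4 arrays. Its difference of 2.83 ± 0.62 stood beside 0.26 at day 5 and 0.66 at day 15 and was 2.95 ± 0.69 without rat 3. Ly6g6d, its neighbour on chromosome 20 with no protein-coding gene between them, had −4.16, −4.00, −4.31 and −4.57 in Fe day 30 rats, against −5.52, −5.43, −5.11 and −5.23 in controls. The difference of Ly6g6d was 1.06 ± 0.30 at day 30 (adjusted p = 0.484), 0.32 at day 5 and 0.30 at day 15.

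Both Ly6 genes lie in the same part of chromosome 20 as the rat major histocompatibility genes, whose near-identical copies a probe may not tell apart. RT1-CE3, a class I gene of that complex, had 1.08, −1.30, 3.25 and 0.76 in Fe day 30 rats, against −1.80, −1.92, −1.66 and −1.66 in controls. The SD was 1.86 among Fe day 30 rats and 0.12 among controls, so the difference of 2.71 ± 0.82 is uncertain in size as well as in gene. RT1-CE10 had −2.04, −1.91, −7.22 and −2.15 in Fe day 30 rats, against −0.97, −1.14, −0.88 and −1.005 in controls, and rat 3 was the array below background there. RT1-A2 had 2.46, 1.27, 4.80 and 2.51 in Fe day 30 rats, against 1.40, 1.26, 1.44 and 1.51 in controls. Rat 2 lay at the control level for RT1-A2 and nearest to it for RT1-CE3.

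Other higher genes of smallest p follow, and then those taken in by size alone. Erg, a transcription factor of endothelial cells, stood at 0.47 ± 0.12, Rrad, a Ras-like GTPase, at 0.32 ± 0.08 and Adap2 at 0.66 ± 0.19 (0.42 without rat 3). Sncaip, a partner of α-synuclein, stood at 0.38 ± 0.11 and Sord, which turns sorbitol into fructose, at 0.27 ± 0.08. Dusp19, a phosphatase of the dual-specificity family, had −1.70, −1.75, −1.97 and −1.08 in Fe day 30 rats, against −2.57, −2.83, −2.61 and −2.55 in controls (1.02 ± 0.31). Krcc1 stood at 0.47 ± 0.14. Or52n4, an olfactory receptor, was above background on 4 Fe day 30 arrays and 0 control arrays (adjusted p = 0.376). With control values raised to the lowest above-background signal of their array it was 2.20-fold higher, a size that is uncertain. Zmynd10, needed to build the motors of cilia, stood at 0.69 ± 0.21 (0.42 without rat 3) and was highest in rat 3. By size alone the list also took in Plagl1, a zinc finger factor, at 2.14 ± 0.78 and Slc38a4, an amino acid transporter, at 2.16 ± 1.03 with 3 of 4 control arrays above background, and in both rat 4 lay close to the controls. Onecut1, a transcription factor, stood at 2.02 ± 0.84 with 1 of 4 control arrays above background. Slc27a2, a fatty acid transporter, stood at 1.59 ± 0.96, and Crb3, a polarity protein of epithelia, at 1.52 ± 0.70 with rat 3 at 0.96 and the other Fe day 30 rats at −2.73 to −1.62.

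By size the lower list took in Myl3, a myosin light chain above background on 1 of 4 Fe day 30 arrays, at −1.40 ± 0.44. Upb1, an enzyme of pyrimidine breakdown, stood at −1.38 ± 0.70, the junction protein Ppl at −1.36 ± 0.75 and Lrrc10b at −0.96 ± 0.46. Zap70, a kinase of T cell receptor signalling, had −1.45, −1.15, −2.12 and −1.70 in Fe day 30 rats, against −0.48, −0.11, −0.67 and −0.70 in controls (−1.12 ± 0.32, adjusted p = 0.484). Cd3e, a chain of the T cell receptor complex, had −7.19, −7.38, −6.38 and −1.52 in Fe day 30 rats, against −1.27, −1.51, −1.83 and −2.69 in controls. Rat 4 lay among the controls for Cd3e, and the probe was above background on 2 of the 4 Fe day 30 arrays.

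**Figure D3:**
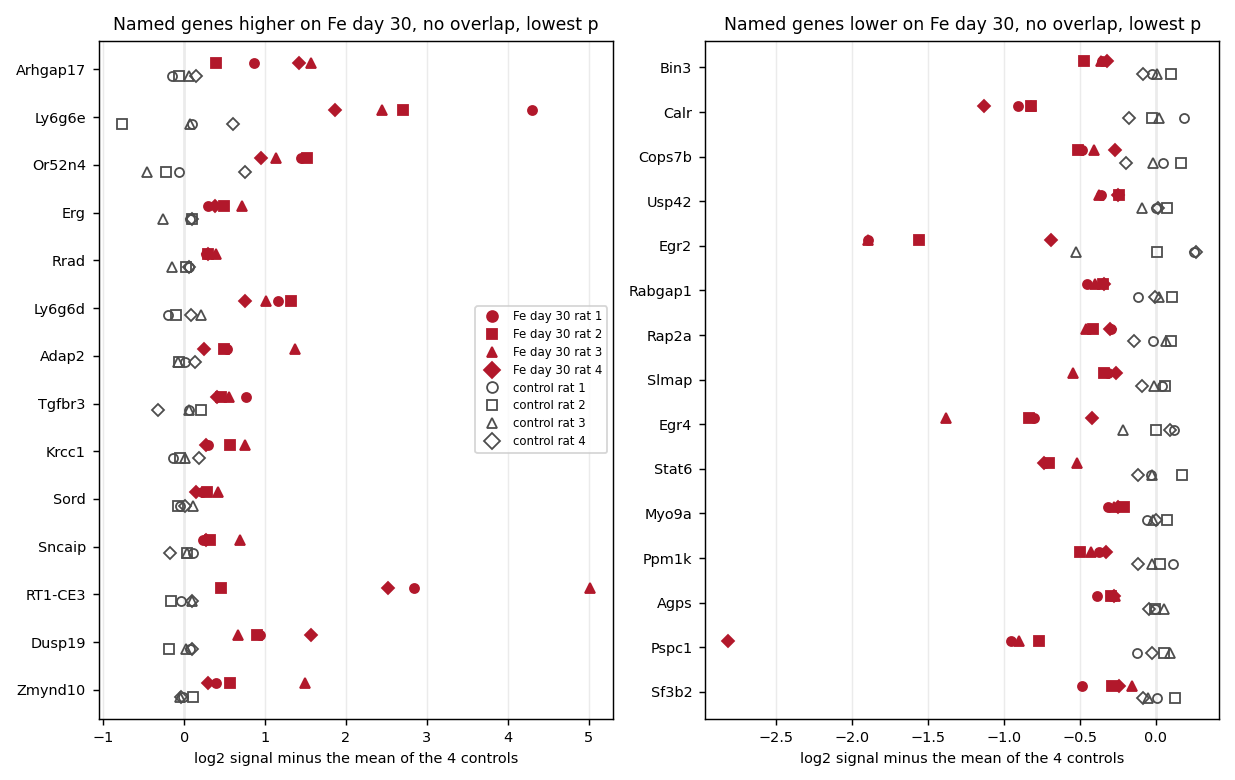
Log2 signal minus the control mean (x axis) for 14 higher (left) and 15 lower (right) named genes of smallest p among those whose groups do not overlap, with Fe day 30 as filled red marks and the control as open grey marks. The lower genes are tight in both groups, apart from Egr2, Egr4 and Pspc1, and several higher genes are led by rat 3 (triangle).

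Immediate early genes lay lower as a group in Fe day 30 rats. Of 23 measured members, 3 of which had passed the background filter on 1 group alone, 19 were lower and 4 higher, 9 were lower at an unadjusted p under 0.05 (the share over all genes was 4.85%) and 0 passed the adjusted threshold. In 6 the groups did not overlap, namely Egr2, Egr4, Nr4a1, Nr4a3, Junb and Npas4, where the share over all genes was 3.75%. Of these, Npas4 had passed the filter through the control alone, the group where it was higher. The median difference was −0.30 with all 4 rats and −0.21 without rat 3, where 6 members kept an unadjusted p under 0.05, against medians of −0.02 and 0.00 over all genes. The list score was −0.25, −0.37, −0.58 and −0.26 in Fe day 30 rats 1 to 4 and 0.16, −0.05, −0.09 and 0.00 in the controls. The medians of this list were −0.21 at day 5, −0.34 at day 15 and −0.30 at day 30, all against the same 4 controls.

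Egr2, a zinc finger transcription factor, had the largest difference of the list. Its log2 signals were −3.19, −2.86, −3.19 and −1.99 in Fe day 30 rats, against −1.05, −1.29, −1.82 and −1.03 in controls. All 4 Fe day 30 rats lay below all controls, with rat 4 nearest to them, and the difference was −1.51 ± 0.34 (2.85-fold, adjusted p = 0.299). Egr4, of the same family, had 2.54, 2.51, 1.96 and 2.92 in Fe day 30 rats, against 3.47, 3.35, 3.13 and 3.44 in controls (−0.86 ± 0.21, adjusted p = 0.376). Nr4a1, an orphan nuclear receptor, had 3.08, 3.32, 2.74 and 4.03 in Fe day 30 rats, against 4.45, 4.37, 4.12 and 4.24 in controls (−1.003 ± 0.31, adjusted p = 0.515). Its relative Nr4a3 stood at −0.52 ± 0.15 and Junb, a partner of Fos, at −0.73 ± 0.20. Without rat 3 the differences were −1.38 for Egr2, −0.69 for Egr4, −0.82 for Nr4a1, −0.36 for Nr4a3 and −0.64 for Junb.

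Arc, a synaptic protein whose RNA is carried to dendrites, had 3.12, 3.00, 2.68 and 4.28 in Fe day 30 rats, against 4.77, 4.56, 4.31 and 4.26 in controls. Rat 4 lay inside the control range, so the groups overlapped, and the difference was −1.21 ± 0.43 (adjusted p = 0.602). Npas4, a factor of inhibitory synapses, stood at −0.85 ± 0.34 and was −0.51 without rat 3. Nr4a2 stood at −0.71 ± 0.28 and Ier5 at −0.58 ± 0.26. Fos, the best known of these genes, had −0.58, 0.17, −0.91 and −0.30 in Fe day 30 rats, against 0.35, −0.05, −0.18 and 0.34 in controls (−0.52 ± 0.32). The members on the other side were Jun at 0.16 ± 0.13, Ier3 at 0.55 ± 0.34 (0.37 without rat 3), Fosl2 at 0.09 ± 0.23 and Klf2 at 0.05 ± 0.22. Rat 3 was the lowest of the 4 Fe day 30 rats in 17 of the 23 genes (it was lowest in 45.4% of all genes) and rat 4 the highest in 11. On the slide that rat 4 shared with control 3 the median difference of the list was −0.12, and on the slide that rat 3 shared with control 2 it was −0.57. With the slide as a block the median was −0.21, Arc was −0.62 and Egr2 was −0.95.

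**Figure D4:**
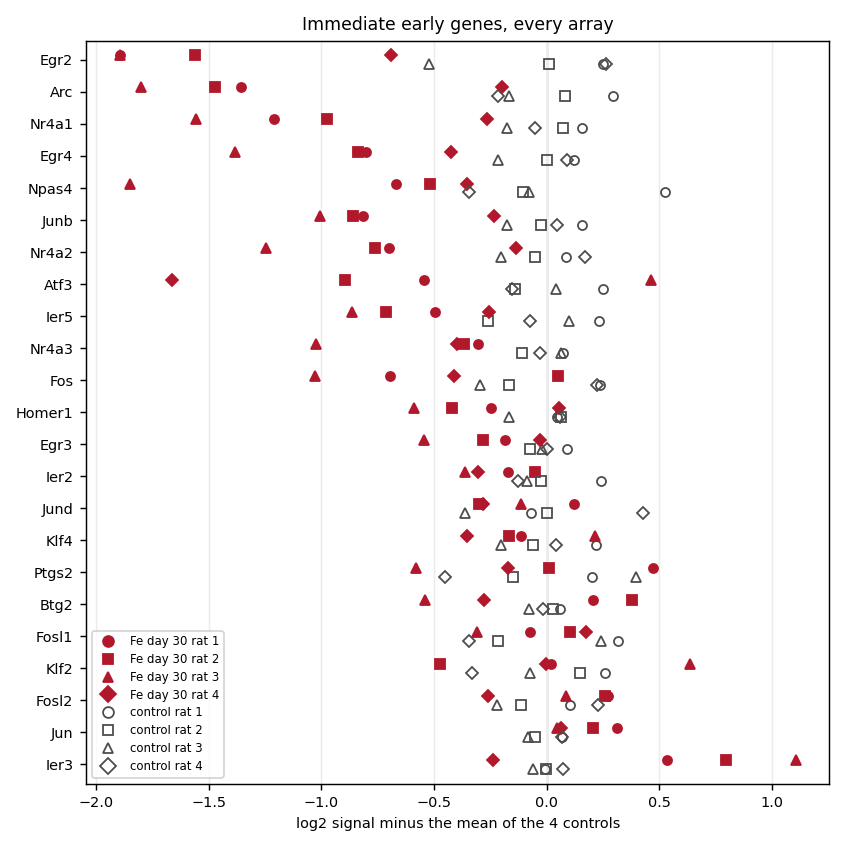
Log2 signal minus the control mean (x axis) of the 23 immediate early genes (y axis, sorted by difference), with Fe day 30 rats as filled red marks and controls as open grey marks. Most red marks lie left of 0 in the upper rows, and rat 4 (diamond) lies nearest to the controls for Egr2, Arc and Nr4a1.

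The promoters of these genes are known to carry binding sites for CREB and for serum response factor, so the windows that run from upstream of the annotated start to just past it were read from RefSeq (build GRCr8) for the 15 of 23 members found in that table. They were searched on both strands for the cyclic AMP response element TGACGTCA, its core TGACG, which lies within it, the CArG box and the E-box CACGTG. The element was found in 3 of 15 windows (1.83% of all 33469 promoters hold it), the core in 9 (21.2%), the CArG box in 1 (1.64%) and the E-box in 1 (6.42%). The 3 windows below belong to the genes with the largest separated differences and are printed 5′ to 3′ on the gene's strand, with capitals for cores, which read CGTCA on the other strand, and, in Egr2, for the CArG box as well.
Egr2 (chr20:21054392-21054691, minus strand): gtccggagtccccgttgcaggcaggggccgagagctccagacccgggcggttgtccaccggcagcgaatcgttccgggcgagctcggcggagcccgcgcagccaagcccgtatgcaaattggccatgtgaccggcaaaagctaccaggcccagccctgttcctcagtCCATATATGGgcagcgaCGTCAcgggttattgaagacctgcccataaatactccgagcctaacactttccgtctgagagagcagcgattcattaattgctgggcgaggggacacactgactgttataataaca
Egr4 (chr4:119607768-119608067, minus strand): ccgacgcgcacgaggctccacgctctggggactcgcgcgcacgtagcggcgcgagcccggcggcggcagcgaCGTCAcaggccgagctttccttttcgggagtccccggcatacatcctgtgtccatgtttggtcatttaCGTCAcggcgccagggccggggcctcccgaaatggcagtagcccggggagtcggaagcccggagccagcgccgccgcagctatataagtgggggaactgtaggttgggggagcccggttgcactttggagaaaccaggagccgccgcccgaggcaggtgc
Nr4a1 (chr7:134259888-134260187, plus strand): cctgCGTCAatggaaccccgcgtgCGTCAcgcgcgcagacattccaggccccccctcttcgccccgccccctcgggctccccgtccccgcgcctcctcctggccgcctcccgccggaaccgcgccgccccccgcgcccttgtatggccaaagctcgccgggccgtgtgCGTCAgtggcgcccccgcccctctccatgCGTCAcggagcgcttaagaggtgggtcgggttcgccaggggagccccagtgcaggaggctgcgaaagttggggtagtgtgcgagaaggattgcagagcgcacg

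The Egr2 window holds 1 core and 1 CArG box, the Egr4 window 2 cores and the Nr4a1 window 4 cores. The window of Junb holds 1 core. That of Npas4, whose groups did not overlap either, holds no match to these motifs. The windows of Jund, Ier2 and Btg2 hold the full element, with differences of −0.14 ± 0.17, −0.22 ± 0.16 and −0.06 ± 0.15. These matches describe the letters in the windows alone.

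Genes that brake growth signalling, many of them induced by the same MAP kinase signals, had 14 of 20 members lower (54% of all genes were), 3 of them at an unadjusted p under 0.05 (4.85% of all genes), and a median of −0.17 (−0.16 without rat 3). Trib1, a pseudokinase that aids protein breakdown, had −3.87, −3.34, −3.45 and −3.13 in Fe day 30 rats, against −2.01, −2.30, −2.54 and −2.60 in controls. The groups did not overlap and the difference was −1.09 ± 0.28 (2.13-fold, adjusted p = 0.417), unchanged at −1.09 without rat 3. Dusp5, a phosphatase of nuclear ERK, stood at −0.78 ± 0.28, Dusp6, its cytoplasmic counterpart, at −0.54 ± 0.29 and Gadd45b at −0.30 ± 0.11. Dusp6 in rat 4, at 3.99, was above the highest control at 3.97.

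Late activity genes and neuropeptides, which follow the immediate early wave, had a median of −0.21 over 24 members (−0.10 without rat 3), with 17 lower (54% of all genes) and 5 lower at an unadjusted p under 0.05 (4.85%). Without rat 3, 14 were lower and 10 higher. Bdnf, the growth factor that supports synapses, had 0.58, 0.54, 0.35 and 0.62 in Fe day 30 rats, against 0.82, 0.77, 1.07 and 0.81 in controls. Its groups did not overlap and its difference was −0.35 ± 0.11 (adjusted p = 0.530), beside −0.31 at day 5 and −0.67 at day 15. Nptx2, a pentraxin that gathers AMPA receptors, stood at −0.47 ± 0.12 (adjusted p = 0.419), Rasl11b at −0.84 ± 0.28 and Inhba, an activin subunit, at −0.49 ± 0.17. Rat 3 was the lowest of the 4 in 16 of the 24.

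Vessel genes leaned the other way. Pericyte and smooth muscle markers, of cells wrapped round small vessels, were higher in 14 of 15 members, with 3 higher at an unadjusted p under 0.05 (3.02% of all genes), 5 with no overlap (2.58% of all genes) and a median of 0.45. The median was 0.37 without rat 3, and the list scores were 0.42, 0.45, 0.51 and 0.11 in Fe day 30 rats 1 to 4, against 0.16, 0.06, −0.19 and 0.02 in the controls. Rat 3 was the highest of the 4 Fe day 30 rats in 10 of the 15 genes (it was highest in 22.6% of all genes), among them Vtn, which stood at 0.85 and at 0.41 without rat 3, and Tbx18, at 0.63 and 0.13. Pdgfrb, the receptor that holds pericytes to vessels, had 0.03, −0.04, 0.06 and −0.18 in Fe day 30 rats, against −0.46, −0.39, −0.56 and −0.40 in controls. All 4 Fe day 30 rats lay above all controls, the difference was 0.42 ± 0.16 (adjusted p = 0.619), and it was 0.33 at day 5 and −0.14 at day 15. Rgs5, a regulator of G protein signals in pericytes, stood at 0.44 ± 0.14, Abcc9, a subunit of their potassium channel, at 0.45 ± 0.19, and Mustn1 at 0.66 ± 0.31. Notch3, also a gene of mural cells, stood at −0.04 ± 0.10. The list median was 0.19 with the slide as a block, and 0.51 and 0.30 within the slides of rats 3 and 4.

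Endothelial markers were higher in 18 of 20 members (46% of all genes), 4 at an unadjusted p under 0.05 (3.02% of all genes) or 2 without rat 3, with a median of 0.23 (0.19 without rat 3) and scores of 0.26, 0.36, 0.36 and −0.07 in Fe day 30 rats, against 0.12, 0.07, −0.12 and −0.04 in controls. Pecam1, an adhesion protein at endothelial contacts, had −3.69, −4.54, −4.91 and −5.55 in Fe day 30 rats, against −5.65, −5.80, −5.55 and −5.96 in controls (1.06 ± 0.30, adjusted p = 0.484). Rat 4 was at the level of the highest control, and the differences at days 5 and 15 were 0.23 and 0.01. Abcg2, an efflux pump of the blood-brain barrier, had −1.08, −0.58, −1.28 and −1.26 in Fe day 30 rats, against −2.69, −1.52, −1.54 and −1.60 in controls, with no overlap and a difference of 0.79 ± 0.26. Emcn stood at 0.29 ± 0.12 and the tight junction protein Ocln at 0.54 ± 0.22, or 0.25 without rat 3. Cldn5, the main claudin of the barrier, stood at 0.17 ± 0.12. Rat 4 was the lowest of the Fe day 30 rats in 14 of the 20 endothelial genes and in 9 of the 15 pericyte genes, and the highest in 0 of either list. In bulk tissue more cells of a type and more RNA per cell cannot be told apart.

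**Figure D5:**
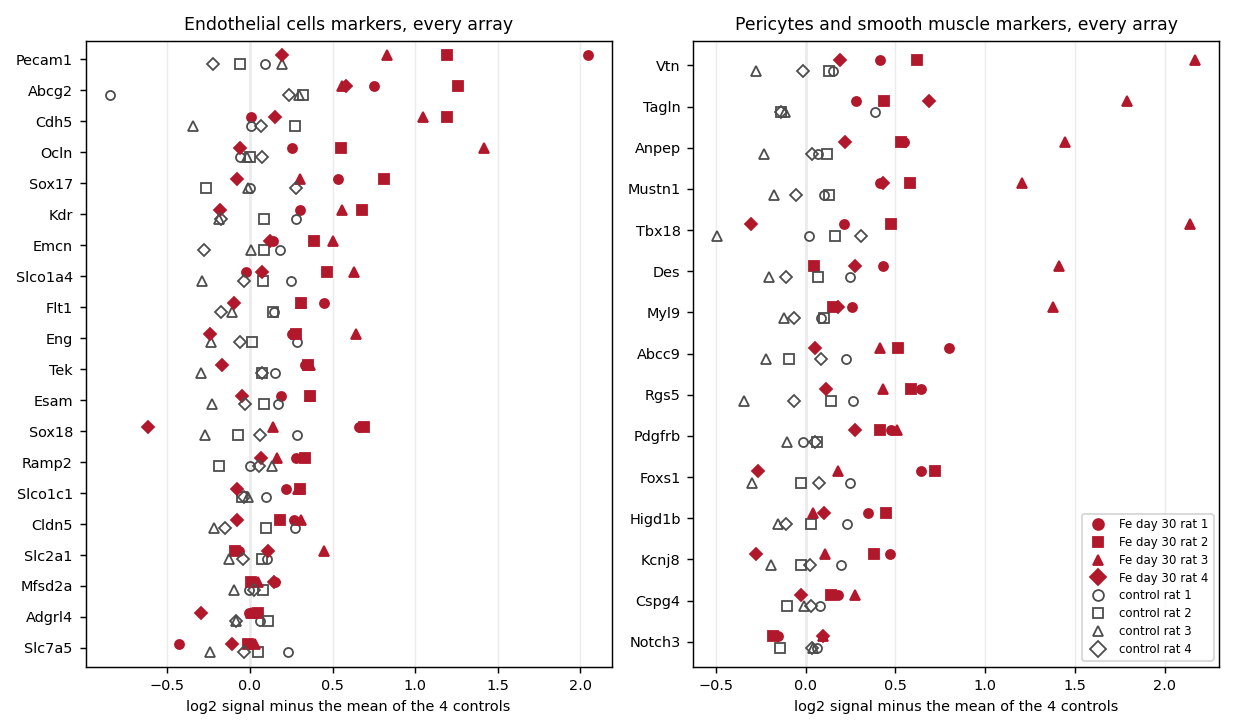
Log2 signal minus the control mean (x axis) of 20 endothelial (left) and 15 pericyte and smooth muscle (right) markers, with Fe day 30 rats as filled red marks and controls as open grey marks. Most red marks lie right of 0, and rat 4 (diamond) lies nearest to the controls in most rows.

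Markers of the brain's coverings and fluid spaces were higher mainly through rat 3. All 12 choroid plexus markers, 1 of which had passed the filter on 1 group alone, were higher, with a median of 1.63 that became 0.33 without rat 3. All 19 meningeal markers were higher with a median of 0.97, or 0.18 without rat 3. All 13 markers of ependyma and motile cilia were higher with a median of 0.59, or 0.26 without rat 3 with 0 of the 13 lower. Kcnj13, a potassium channel of choroid plexus, had −5.53, −5.84, 3.44 and −3.36 in Fe day 30 rats, against −4.79, −5.42, −6.38 and −6.03 in controls. Rat 4 lay above the controls as well, by far less than rat 3. Slc5a5, the iodide transporter, had −1.52, −1.44, 2.03 and −1.82 in Fe day 30 rats, against −2.43, −2.45, −2.47 and −2.59 in controls, so that rats 1, 2 and 4 were above the controls too. Ace, the angiotensin-converting enzyme, had −4.51, −4.44, 0.36 and −4.33 in Fe day 30 rats, against −4.68, −4.71, −5.22 and −4.71 in controls. Msx1 stood at 0.92 ± 0.54 (0.23 without rat 3), Lum, a proteoglycan of connective tissue, at 1.06 ± 0.69 (0.60 without rat 3), Slc22a6 at 1.19 ± 0.86 (0.40 without rat 3), Slc22a8 at 0.97 ± 0.48 (0.49 without rat 3) and Slc47a1 at 1.02 ± 0.55 (0.60 without rat 3). Of the ciliary genes Mlf1 stood at 0.78 ± 0.39 with no overlap, Rsph4a at 1.19 ± 0.61 (0.50 without rat 3), Spef2 at 0.57 ± 0.29 (0.26 without rat 3) and Tekt1 at 0.52 ± 0.30 (0.12 without rat 3).

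Immune genes followed rat 3 in the same way. The scores for microglia and macrophages were 0.01, 0.02, 0.95 and −0.40 in Fe day 30 rats 1 to 4, and the list median of 0.15 over 23 genes became −0.11 without rat 3. Antigen presentation and interferon genes had a median of 0.19 over 26 members, or −0.22 without rat 3, which was the highest Fe day 30 rat in 24 of the 26. Complement genes had 0.23 and −0.08, and cytokines 0.30 and 0.00. Lyz2, the lysozyme of macrophages, had 1.40, 1.58, 3.17 and 1.03 in Fe day 30 rats, against 1.60, 1.38, 1.26 and 1.32 in controls, a difference of −0.0548 without rat 3, and Mrc1, a receptor of border macrophages, stood at 0.60 ± 0.53 (0.10 without rat 3). C1qc stood at 0.23 ± 0.28 (−0.0156 without rat 3) and Ptprc at 0.20 ± 0.20 (0.0292 without rat 3). Tap2, which loads peptides for class I display, stood at 0.48 ± 0.18 with no overlap and at 0.31 without rat 3, and Tap1 at 0.76 ± 0.41 (0.34 without rat 3). C5ar1 stood at 0.37 ± 0.32 (0.0952 without rat 3), Cd59b at 0.18 ± 0.11 (0.10 without rat 3), Cd55 at 0.47 ± 0.30, or −0.00246 with normexp background correction, and Masp1 at −0.25 ± 0.14, or 0.13 with the mean of its probes. Irf9 stood at −0.40 ± 0.22.

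Values of some other immune, blood and matrix genes follow, and none of these genes passed the adjusted threshold. Cx3cl1, the chemokine that neurons display to microglia, had 7.07, 6.98, 6.75 and 7.19 in Fe day 30 rats, against 7.45, 7.52, 7.30 and 7.41 in controls. Its groups did not overlap, and the difference of −0.42 ± 0.13 (adjusted p = 0.519) was −0.34 without rat 3. Il33, an alarm cytokine of glial nuclei, had 0.64, 0.97, 1.09 and 0.86 in Fe day 30 rats, against 1.24, 1.09, 1.35 and 1.45 in controls (−0.39 ± 0.12, and −0.46 without rat 3). Tgfb3 had 0.07, 0.21, −0.10 and −0.41 in Fe day 30 rats, against −0.82, −0.78, −0.63 and −0.77 in controls (0.69 ± 0.32). Il1rn, which blocks interleukin-1, stood at 1.06 ± 0.62 (0.60 without rat 3). Blood cell genes had a median of 0.40 over 8 members, or −0.02 without rat 3. Hbb, a globin, stood at 0.40 ± 0.44 (−0.046 without rat 3), S100a9 of neutrophils at 0.44 ± 0.33 (0.14 without rat 3) and Camp at 0.79 ± 0.63. Matrix genes had a median of 0.43 over 17 members, or 0.06 without rat 3, with Fn1 at 0.76 ± 0.46 (0.43 without rat 3), Col8a1 at 2.36 ± 1.29, of which rat 3 stood at 1.48 and the others at −5.54 to −4.46, and Ccn1 at 0.60 ± 0.38.

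Genes of excitability and synapses had small negative medians, and less so without rat 3. Glutamate receptors and their partners were lower in 23 of 30 members (54% of all genes), 4 at an unadjusted p under 0.05 (4.85%) or 0 without rat 3, with a median of −0.19, or −0.09 without rat 3. Gria1, an AMPA receptor subunit, had 3.26, 2.91, 2.76 and 3.11 in Fe day 30 rats, against 3.37, 3.72, 3.44 and 3.35 in controls, with no overlap (−0.46 ± 0.17, adjusted p = 0.619). Dlg4, the scaffold PSD-95, stood at −0.37 ± 0.14, Cnih2, an AMPA receptor partner, at −0.60 ± 0.25 and Grin1, the common NMDA receptor subunit, at −0.27 ± 0.12 (−0.15 without rat 3). GABA receptor and chloride genes were lower in 17 of 21 with a median of −0.12, or −0.04 without rat 3, with Gabra4 at −0.44 ± 0.18, Clcn2 at −0.27 ± 0.15 (−0.16 without rat 3) and Gabrg3 at 0.55 ± 0.27, or −0.00859 with normexp background correction. In rat 3 the score for neurons in general was −0.30, against −0.01 to 0.06 in the other Fe day 30 rats.

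Potassium channel genes were lower in 28 of 35 with a median of −0.15, or −0.07 without rat 3. Kcnab1, an auxiliary subunit of voltage-gated channels, had 0.69, 0.39, 0.01 and 0.77 in Fe day 30 rats, against 1.08, 0.91, 1.08 and 0.97 in controls (−0.55 ± 0.18, adjusted p = 0.530), and stood at −0.39 without rat 3. Kcnd2, which carries the A-type current, stood at −0.48 ± 0.20 and Kcna1 at −0.35 ± 0.15. Kcna5 lay on the other side, with −3.42, −3.44, −3.38 and −3.94 in Fe day 30 rats, against −4.37, −4.47, −4.53 and −3.98 in controls (0.79 ± 0.29). Sodium, calcium and HCN channel genes were lower in 20 of 26 with a median of −0.16, or −0.06 without rat 3, with Trpc5 at −0.61 ± 0.24, Cacna1a at −0.52 ± 0.20 and Cacna1e at −0.35 ± 0.14. Genes of vesicle release had a median of −0.07 over 37 members, or 0.01 without rat 3, with Doc2b at −0.54 ± 0.16, Unc13a at −0.46 ± 0.17, Syt5 at −0.24 ± 0.09 and Syt7 at −0.54 ± 0.24.

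Receptors for serotonin, acetylcholine, monoamines, opioids, adenosine and peptides were even with all 4 rats, with 25 higher and 25 lower. Without rat 3, 32 were higher and 18 lower. Adra2c, an adrenergic receptor that restrains noradrenaline release, had 2.25, 1.76, 2.10 and 2.23 in Fe day 30 rats, against 2.56, 2.72, 2.57 and 2.64 in controls. Its groups did not overlap, and the difference of −0.54 ± 0.15 (adjusted p = 0.468) was the same without rat 3, beside −0.50 at day 5 and −0.22 at day 15. Htr1b, a serotonin receptor, had −4.64, −5.07, −5.46 and −3.74 in Fe day 30 rats, against −3.75, −3.46, −3.74 and −3.78 in controls (−1.05 ± 0.33), and rat 4 lay with the controls. Sstr4, a somatostatin receptor, stood at −0.43 ± 0.17 (−0.28 without rat 3) and Adora2b, an adenosine receptor, at 0.31 ± 0.13.

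Rat 4 also lay with the controls in the score for hippocampal subfields, at −0.0047 against −0.05 to 0.04, though for Prox1, given above, it lay below all controls. The list had a median of −0.21 over 18 genes (−0.17 without rat 3). Of these, 5 were higher and 13 lower, 1 of them lower at an unadjusted p under 0.05 (4.85% of all genes). Wfs1, a marker of CA1 pyramidal cells, had 1.49, 0.92, 0.48 and 2.99 in Fe day 30 rats, against 3.21, 3.18, 2.92 and 2.51 in controls (−1.48 ± 0.60, adjusted p = 0.619), and stood at −1.83 at day 5 and −0.74 at day 15. Pou3f1, another CA1 gene, had 0.23, −0.01, −0.79 and 1.02 in Fe day 30 rats, against 0.88, 0.95, 0.76 and 1.06 in controls. Bok stood at −0.62 ± 0.29 and Fibcd1 at −0.37 ± 0.22 (−0.22 without rat 3). Neurod2, a factor of excitatory neurons, stood at −0.54 ± 0.25 with no overlap, while Nefm stood at 0.23 ± 0.12, Syn1 at −0.18 ± 0.10 (−0.11 without rat 3) and Slc17a7 at −0.24 ± 0.14. Interneuron genes had a median of 0.03 over 20 members, with Reln at 0.39 ± 0.14 and no overlap, Gad1 at 0.25 ± 0.14, Crhbp at −0.42 ± 0.20 (−0.23 without rat 3) and Tac3 at −0.56 ± 0.23.

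The lists of astrocytes, myelin and oligodendrocyte precursors had medians near 0 with all 4 rats, while microglia are given above. Astrocyte genes had a median of −0.02 over 24 members (0.02 with quantile normalization). Gfap, the filament that reactive astrocytes make more of, had 1.20, 2.01, 2.40 and 1.70 in Fe day 30 rats, against 0.96, 2.11, 1.74 and 0.75 in controls (0.44 ± 0.31, or 0.25 without rat 3, adjusted p = 0.701), and the groups overlapped widely. Of the astrocyte genes 11 were higher and 13 lower, and 2 lay below all controls (3.75% of all genes). Both of these were glutamate uptake genes. Slc1a3 stood at −0.22 ± 0.08, and Slc1a2 at −0.17 ± 0.09, or −0.17 and −0.09 with the slide as a block. Among other carriers, the calcium pump Atp2b1 stood at −0.46 ± 0.20 and the sodium-calcium exchanger Slc8a1 at −0.29 ± 0.14. Myelin genes had a median of 0.02 over 19 members, or 0.27 with the slide as a block, with Cldn11 at 0.30 ± 0.23 (0.16 without rat 3) and Aspa at 0.20 ± 0.14, and precursor genes 0.01 over 8, with Pdgfra at 0.22 ± 0.14 (0.14 without rat 3). Perineuronal net genes had a median of −0.08 over 15 members, with Ncan at −0.30 ± 0.12 and Tnr at −0.24 ± 0.11, both without overlap, Hapln1 at −0.32 ± 0.15 and Bcan at −0.20 ± 0.10 (−0.11 without rat 3). Of the 15, 3 were lower at an unadjusted p under 0.05 (4.85% of all genes), or 0 without rat 3.

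Genes of iron handling were close to the control level, with a median of 0.11 over 23 members that became 0.02 without rat 3. Slc11a2, the importer of ferrous iron, had 1.00, 0.94, 1.13 and 1.27 in Fe day 30 rats, against 1.27, 1.49, 1.26 and 1.26 in controls (−0.24 ± 0.10). Heph, a ferroxidase that helps export, had −2.42, −1.89, −1.53 and −2.79 in Fe day 30 rats, against −2.76, −2.92, −2.85 and −2.92 in controls (0.71 ± 0.30, and 0.50 without rat 3). Hfe, a sensor of iron-loaded transferrin, stood at 1.21 ± 0.54, or 0.51 without rat 3, and the reductase Steap1 at 1.70 ± 1.01, or 0.40. Antioxidant genes and targets of Nrf2 had a median of 0.04 over 28 members, with Gsta4 at 0.53 ± 0.25 (0.29 without rat 3), Sod1 at 0.13 ± 0.07 and Nfe2l2, which encodes Nrf2, at 0.19 ± 0.11 (0.0683 without rat 3).

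The chaperone lists held a few members that stood apart from medians near 0. Endoplasmic reticulum stress genes had a median of 0.04 over 20 members. Besides Calr, Atf6, a sensor of unfolded protein, had 1.08, 0.77, 1.20 and 1.17 in Fe day 30 rats, against 1.38, 1.70, 1.37 and 1.42 in controls (−0.41 ± 0.11, adjusted p = 0.438), with no overlap. Creld2 and Dnajc3, which unfolded protein induces, lay on the other side at 0.24 ± 0.12 and 0.19 ± 0.10 (0.0916 without rat 3). Cytosolic heat shock genes had a median of 0.03 over 17 members. Hspa1a, the inducible Hsp70, had 0.61, 0.44, 0.85 and 2.46 in Fe day 30 rats, against −0.01, −0.09, 0.18 and −0.04 in controls, so that all Fe day 30 rats were higher and rat 4 by far the most (1.08 ± 0.54, and 1.46 at day 15). Hspb1, a small heat shock protein, stood at 0.97 ± 0.45, or 0.49 without rat 3.

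Lipid genes, which the oxidation of membranes by iron brings into question, had medians between −0.07 and 0.19 in 7 lists. Prostaglandin, leukotriene and phospholipase enzymes had the highest, 0.19 over 22 members with 18 higher, or 0.11 without rat 3. Ptgs1, the constitutive cyclooxygenase, had −1.05, −1.42, −1.41 and −1.41 in Fe day 30 rats, against −1.49, −1.86, −1.80 and −1.84 in controls, with no overlap (0.42 ± 0.18, adjusted p = 0.619). Alox5ap stood at 0.61 ± 0.32, Alox5 at 0.36 ± 0.22 and Ptgis at 0.96 ± 0.50 (0.38 without rat 3). Of the endocannabinoid enzymes, Mgll, which breaks down 2-arachidonoylglycerol, had 1.96, 1.96, 1.46 and 1.87 in Fe day 30 rats, against 2.51, 2.56, 2.59 and 2.14 in controls (−0.64 ± 0.21, adjusted p = 0.531). Abhd12, which shares that substrate, stood at −0.20 ± 0.08, and neither gene's groups overlapped. Idi1, of the cholesterol pathway, had 2.58, 2.62, 2.66 and 2.46 in Fe day 30 rats, against 2.22, 2.20, 2.35 and 2.37 in controls (0.29 ± 0.10). Of the 24 members of that pathway 18 were lower (54% of all genes), or 11 without rat 3, which was the lowest of the 4 in 21 of them. Cpt1a, which admits fatty acids to mitochondria, stood at 0.27 ± 0.11, Hsd17b4 at 0.17 ± 0.08, B4galnt1, a ganglioside enzyme, at −0.31 ± 0.13 and Abcg1, a cholesterol exporter, at −0.20 ± 0.09.

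Housekeeping lists lay at or near 0. Respiratory chain genes had a median of 0.00 over 35 members, proteasome subunits 0.00 over 26 and ribosomal proteins −0.04 over 41 (0.02 with quantile normalization), although 34 of the 41 were lower. Glycolysis genes had 0.01 over 23, with the lactate carrier Slc16a7 at −0.31 ± 0.10 and no overlap. Among clock genes 13 of 17 were lower (54% of all genes), with 3 at an unadjusted p under 0.05 (4.85%) and the same 3 without overlap (3.75%). Cry2, a repressor of the clock, had −0.99, −1.13, −1.18 and −0.80 in Fe day 30 rats, against −0.65, −0.59, −0.60 and −0.78 in controls (−0.37 ± 0.10, adjusted p = 0.468). Csnk1e, the kinase that marks PER proteins, had −0.47, −0.33, −0.41 and −0.30 in Fe day 30 rats, against −0.01, −0.05, −0.07 and −0.02 in controls (−0.34 ± 0.10), beside −0.06 at day 5 and −0.18 at day 15. Tef, an output factor, stood at −0.22 ± 0.09. Per1, Per2, Nr1d1 and Dbp, whose RNA follows the hour of day most closely, stood at −0.09 ± 0.11, 0.08 ± 0.12, −0.03 ± 0.11 and −0.01 ± 0.23. The hour of collection was not given in the sources used here.

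Of the remaining signalling lists, TGF beta, BMP and Wnt genes held 5 of 32 members above all controls (2.58% of all genes). Rat 3 was the highest of the 4 in 17 of the 32, and the list median of 0.11 was 0.02 without it. Tgfbr3, a co-receptor for TGF beta, had −4.29, −4.59, −4.50 and −4.65 in Fe day 30 rats, against −4.99, −4.84, −4.99 and −5.38 in controls (0.54 ± 0.16, adjusted p = 0.497). Lef1, a Wnt factor also found in vessels, stood at 0.61 ± 0.24 and Tgfbr1 at −0.28 ± 0.13. Among growth factors and receptors of vessels Jag1 stood at 0.55 ± 0.27 and Fgfr1 at −0.40 ± 0.18. Neurogenesis and cell cycle genes had a median of 0.09 over 23 members, glucocorticoid targets −0.05 over 18, axon guidance genes −0.10 over 20, lysosome genes 0.03 over 33 and chromatin enzymes −0.01 over 11 (0.02 with quantile normalization), with 0 members of these 5 lists past the adjusted threshold. Nr3c2, the mineralocorticoid receptor, stood at −0.45 ± 0.22 with rat 4 at 2.84 and the others at 2.03 to 2.36.

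Fe day 30 was also set against the earlier Fe days, with the same fit. Against Fe day 15 limma called 0 genes, with a lowest adjusted p of 0.639 and with 785 higher and 994 lower at an unadjusted p under 0.05. Against Fe day 5 it called 0 genes as well, with 407 higher and 407 lower at that level. The differences at days 5, 15 and 30 given above share the same controls. A like value on several days is therefore not an independent repeat.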

How the data were processed

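Arrays were read with Agilent Feature Extraction 9.5, per the submitters' processing notes. The deposited scanner files hold, per the file headers, a background-subtracted processed intensity for each spot on a linear scale. The 75th percentile of that intensity ran from 553 to 864 over the 8 arrays, no spot was saturated, and with 4 arrays a group their number sets the precision. The deposited series table held the same intensity values. Intensities were put on a log2 scale here, since the authors deposited linear values, with each array set relative to its own 75th percentile.

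Control spots and marked spots were left out, which removed 122 probes. Probes well above background on all 4 arrays of Fe day 30 or of control were kept (30008), and the probe of highest mean stood for each of the 2182 genes with several. Symbols came through RefSeq accessions from a RefSeq table of the assembly GRCr8, which named 15184 of 20378 probes with such an accession. A one-way model of all 16 arrays was fitted with limma 3.58.1 in R 4.3.3 (12 residual degrees of freedom, median residual SD 0.19, median SE 0.13), with two-sided tests and Benjamini-Hochberg adjustment over 27375 genes at 0.05. What the p-values weigh is spread from rat to rat. The code was tested on simulated data.

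The comparison and the gene lists were chosen with earlier results of these data known. Named genes were the 15 of lowest p and the 10 of largest difference in each direction whose groups did not overlap, every gene past the threshold, up to 4 members of lowest p from each list, and Arc, Fos, Bdnf, Gfap, Ttr, Pecam1, Hbb and Lum. Some genes that this rule takes in are not reported here, which leaves 14 higher and 15 lower genes of lowest p. Other list members are named where they complete a group and were chosen after their values were seen. In the lists the symbol of transferrin was brought to the rat form, and Ly6g6e, which is no blood marker, was taken out of the blood list after its values were seen. Alternatives changed the background correction, scaling, filter, choice of probe, fit, slide, replicate number and arrays. The planned normexp alternative used median signals, the columns at hand.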

Additional observations from a re-analysis of the deposited data

Results flagged for a closer look

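Each group of 4 arrays was searched for a rat whose gap to its nearest neighbour took up more of the group's range than Dixon's 95% limit, which chance gives in about 1 in 20 groups. Among the named genes 36 of 476 groups held such a rat, and among list scores 9 of 102. Rat 3 of Fe day 30 was that rat in 21 cases.

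In rat 3 the score for choroid plexus epithelium was 5.37, that for meninges and fibroblasts 3.16, that for antigen presentation and interferon response 1.28 and that for extracellular matrix 1.30. Its potassium channel score was −0.36 and its lipid transport score 0.0771. Rat 3 stood alone on the high side in log2 signal for Slc5a5 at 2.03, Steap1 at 1.61, Ace at 0.36, Col8a1 at 1.48, Hfe at −2.41, Slc22a6 at −2.20, Tekt1 at −1.22, Mrc1 at −0.93, Hspb8 at −0.67, Dnajc3 at 0.29 and Stat6 at −2.87. It stood alone on the low side for RT1-CE10 at −7.22, Nr4a3 at 1.44, Abhd6 at 1.00 and Tnr at −0.0275.

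Rat 4 of Fe day 30 stood alone for Slc38a4 at −4.26, Kcna5 at −3.94 and Pspc1 at −2.24, all below the others of its group, and above them for Nfil3 at −0.70 and Slc8a1 at −0.66. Rat 1 stood alone for Ptgs1 at −1.05.

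Single controls stood alone as well. Control 1 did so for Abcg2 at −2.69, Ptgs1 at −1.49 and the score of oligodendrocyte precursors at 0.0598. Control 2 did so for Hsp90ab1 at 7.62, Atf6 at 1.70, Tef at 2.18, Slc11a2 at 1.49, Unc13a at 0.65, Htr1b at −3.46, Sphk1 at −5.70 and the cytokine score at −0.17. Control 3 did so for Erg at −2.85, Ace at −5.22, Jag1 at −2.55, Rps24 at 5.11 and the score of fatty acid and glycerolipid synthesis at 0.0569. Control 4 did so for Cacna1a at −1.84 and Pfkfb2 at −1.16.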

How the results depend on the processing

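Of 27375 genes 2 were called at day 30. The count was 8 with quantile normalization, 7 with scaling by the median of probes above background on all arrays, 27 with array weights (5 higher, 22 lower, Bin3 and Calr among them), 0 with Fe day 30 and control fitted alone and 0 with the slide as a block. It was 0 without the 3 arrays of the series high in choroid plexus or meninges markers. Leaving out 1 array gave 0 to 4 calls, with 4 without Fe day 30 rat 3 and 0 without Fe day 30 rat 1 or 4 or control 1, 2 or 4. A_44_P226284 was called under the fit with the replicate number as a block as well, with A_44_P329221 as the second of 2 calls there and 1969 genes at an unadjusted p under 0.05. A_44_P242546 was not called there, and A_44_P226284 was not called with normexp. Same-numbered rats did not deviate together (correlations of −0.14, −0.03, −0.000221 and −0.14). These values gave no sign of pairing by number, but they are too few to exclude it. The 2156 genes at an unadjusted p under 0.05 (828 higher, 1328 lower) were 1336 with normexp background correction on median signals (334 higher, 1002 lower) and 4000 with array weights (1971 higher, 2029 lower), and 1450 to 3035 with 1 array left out. In limma that count was 2815, 1584 and 2052 in the order of the 3 settings above that made 0 calls. The cause of these shifts was not tested.

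Among the named genes, 4 were on the other side of 0 without Fe day 30 rat 3, and with the same values without the 3 arrays. They were Hbb at −0.046 (−0.046 to 0.69 over the arrays left out), Lyz2 at −0.0548 (−0.0548 to 0.66), C1qc at −0.0156 (−0.0156 to 0.41) and Cldnd1 at 0.00146 (−0.13 to 0.00146). With normexp Gabrg3 was at −0.00859, Cd55 at −0.00246 and Ccnb2 at −0.0309. With the mean of all probes of a gene Hsp90ab1 was at 0.0198 and Masp1 at 0.13, and with the slide as a block Ndufa5 was at 0.0308. None of these was called. Without Fe day 30 rat 3 the medians of 12 of the 51 gene lists changed sign. The dim probes limit what can be read, since 590 genes were well above background on all Fe day 30 arrays but not on all controls.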
